A study of Mus musculus with 8 samples.

Results

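The enolase genes *Eno1*, *Eno1b*, *Eno2* and *Eno3* were followed in splenic CD4+ T cells of mice with chronic stimulation of the costimulatory receptor CD27. They are the 4 of 52636 rows of the deposited table that carry these names. *Eno1b* was chosen by its low values in the libraries of mice with the *Cd70* transgene, in earlier results of these same libraries, and the other 3 because they belong to the same family. The values of *Eno1b* in that comparison are therefore given as a description, without a test. RNA was sequenced from sorted regulatory T cells (Tregs, CD4+ Foxp3+) and conventional T cells (Tconvs, CD4+ Foxp3-), with 200000 cells per library and 2 libraries in each of 4 groups. The controls were CD27+/- Foxp3 reporter mice, whose regulatory cells carry eGFP, and the others were CD11c-Cd70tg;CD27+/- Foxp3 reporter mice (CD70Tg). The transgene puts CD70, which binds CD27, under the promoter of CD11c and so mainly into dendritic cells. All groups thus carried 1 functional allele of CD27, and mice were 6 to 8 weeks old. The sample labels name the control groups WT or F1 and the columns of the table name them KO, and these were taken as the CD27+/- mice. Nothing in the labels says that the 2 libraries of a group came from separate mice, so that p-values measure only the spread between libraries.

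Enolase catalyses the penultimate step of glycolysis, the conversion of 2-phosphoglycerate to phosphoenolpyruvate, and works as a dimer. *Eno1* encodes the alpha subunit found in nearly all tissues, *Eno2* the gamma subunit typical of neurons and *Eno3* the beta subunit typical of muscle. *Eno1b* has the form of a retrocopy of *Eno1*, that is, a copy of the spliced transcript set back into the genome. T cells that become activated are known to raise their rate of glycolysis.

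In GENCODE M21 (build GRCm38), *Eno1* (ENSMUSG00000063524) lies at chr4:150236721-150248879 on the plus strand and has 12 exons in its main transcript. The coding sequences of *Eno1* and *Eno1b* were 99.4% identical and differed at 8 of 1302 bases, none of which changed the encoded residue. The first 725 coding bases were the same in both genes. The identity of *Eno1* was 75.3% with *Eno2* and 76.9% with *Eno3*. The stretches of *Eno1* that hold the 8 differing bases are shown because reads of the coding sequence can be told apart only there. They are written in the sense of the mRNA, with capitals at the bases that differ in *Eno1b*. They are taken from GENCODE M21 and lie, in this order, at chr4:150246618-150246638, chr4:150246639-150246659, chr4:150246708-150246728, chr4:150247622-150247642 and chr4:150248098-150248118 of GRCm38, plus strand, within exons 8, 9 and 11 of *Eno1*.
Eno1 exon 8, position 726 of the coding sequence: aggttgtcatTggcatggatg
Eno1 exon 8, positions 747 and 750: tggctgcctcCgaGttctaca
Eno1 exon 8, position 816: ggtacatcacTcccgaccagc
Eno1 exon 9, positions 1047 and 1056: agatcggctcTgtgaccgaAt
Eno1 exon 11, positions 1224 and 1233: ccaagtacaaTcagatcctCa

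Over the main transcripts, untranslated ends included, 75.3% of all windows of 50 bases of *Eno1b* were found unchanged in *Eno1*, and 61.8% of windows of 100 bases and 50.4% of windows of 150 bases. No window of *Eno2* or *Eno3* of these lengths was found in *Eno1*. The length of the reads and how HTSeq counted reads that map to several places are not given in the sources used here, so that part of the reads of *Eno1* and *Eno1b* may have been left uncounted or credited to the other gene. Values of this pair are uncertain to that extent.

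*Eno1b* (ENSMUSG00000059040) lies at chr18:48045335-48048412 of the same build, on the plus strand, and has 2 exons. *Eno2* (ENSMUSG00000004267, chr6:124760053-124769673, minus strand) and *Eno3* (ENSMUSG00000060600, chr11:70657202-70662513, plus strand) have 12 exons each. All 4 genes are annotated as protein coding, with a coding sequence of 1302 bases without the stop codon. None shares an exon with another annotated gene, though *AC150274.2* overlaps the locus of *Eno1b* on the same strand. That gene was not analysed here.

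The deposited values are reads per gene scaled to 20 M (mega) reads per library and rounded up. From the smallest step between values, control Tconvs had a median depth of 14.56 M reads, CD70Tg Tconvs of 20.18 M, control Tregs of 4.36 M and CD70Tg Tregs of 2.82 M. A value given by 3 reads was 1.8 to 8.6 in the Tconv and 13.1 to 31.3 in the Treg libraries. The sorted subsets matched their labels, with *Foxp3* between 19769 and 21367 in Tregs and between 1039 and 1497 in Tconvs. The transcript of *Cd70* was 15 and 28 in CD70Tg against 4 and 3 in control Tconvs, and 11 and 44 against 0 and 9 in Tregs. *Cd27* was present in all libraries, between 2980 and 6123. In such bulk RNA, fewer cells that express a gene and less of its RNA per cell cannot be told apart.

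**Figure D1:**
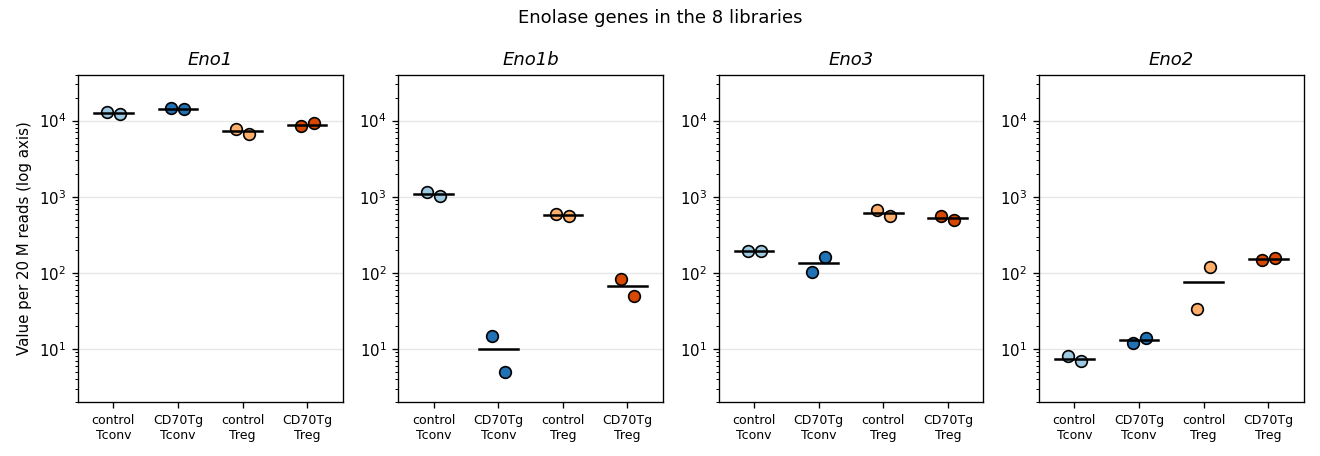
Value of each enolase gene (per 20 M reads, log axis) in each of the 8 libraries, as points, with the mean of the 2 libraries of a group as a line. *Eno1* was at 6726 or above in all libraries, whereas *Eno1b* lay between 5 and 84 in the 4 CD70Tg libraries and between 565 and 1138 in the 4 control libraries.

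*Eno1* was the main enolase transcript of both subsets. It had values of 12909 and 12097 in control Tconvs, 14602 and 14153 in CD70Tg Tconvs, 7735 and 6726 in control Tregs, and 8411 and 9331 in CD70Tg Tregs. All Tconv libraries lay above all Treg libraries, and within each subset both CD70Tg libraries lay above both controls. *Eno1* made up 84.3 to 90.8% of the summed values of the 4 genes in control libraries and 91.4 to 99.1% in CD70Tg libraries.

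Control Tregs held less *Eno1* than control Tconvs, with 7230 ± 713 against 12500 ± 574 (SD, n = 2 libraries each), a ratio of 0.578. The log2 fold change was -0.79 (SE 0.12, adjusted p = 4.91e-05, limma over 12816 genes). This passed the threshold on the adjusted p-value of 0.05 but not that on the fold change, an absolute log2 value over 1. In CD70Tg mice the same ratio was 0.617.

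The higher values of *Eno1* in CD70Tg mice did not pass the test in either subset. In Tregs the means were 8870 ± 651 against 7230 ± 713, with a log2 fold change of 0.30 (95% interval 0.05 to 0.55, adjusted p = 0.148, limma). In Tconvs they were 14400 ± 317 against 12500 ± 574, with a log2 fold change of 0.20 (95% interval -0.05 to 0.45, adjusted p = 0.398, limma). The responses of the subsets differed by 0.09 on the log2 scale (95% interval -0.26 to 0.45, adjusted p = 0.902, limma).

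*Eno1b* was well detected in all control libraries and nearly lost in all CD70Tg libraries. It had values of 1138 and 1030 in control Tconvs, from 1110 and 492 reads, and of 15 and 5 in CD70Tg Tconvs, from 5 and 8 reads. In Tregs it had values of 602 and 565 in controls, from 124 and 129 reads, and of 84 and 49 in CD70Tg mice, from 8 and 9 reads. No CD70Tg library of either subset reached the value of any control library. The means were 108-fold lower in CD70Tg than in control Tconvs (10 ± 7.07 against 1080 ± 76.4) and 8.77-fold lower in CD70Tg than in control Tregs (66.5 ± 24.7 against 584 ± 26.2). The fold in Tconvs rests on few reads and was 217 without the CD70Tg library with 15 and 72.3 without that with 5. In Tregs it was 11.9 without the library with 84 and 6.95 without that with 49. On the log2 scale of the values plus 5, on which low genes are drawn together, these differences were -6.27 and -3.08.

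Compared with the other genes, the members read as follows. In Tregs 1.08% of the 12816 tested genes were called lower in CD70Tg mice and in Tconvs 0.577%, by limma's adjusted p-value (under 0.05) together with the fold change (log2 value below -1). The shares called higher were 2.53% and 4.07%. Since *Eno1b* was chosen for this contrast, nothing is read from its place among them. Of the other 3 members, 0 passed these thresholds in either subset, where 3.60% of all genes in Tregs and 4.65% in Tconvs passed in either direction. At an unadjusted p-value under 0.05 in limma there were 2 of 3 in Tregs (*Eno1* and *Eno2*) and 1 of 3 in Tconvs (*Eno3*), against 21.6% and 19.1% of all genes, and limma-voom on the numbers of reads called 0 in both. For the difference between the responses, 0 of these 3 were called by limma or limma-voom and 0 reached an unadjusted p-value under 0.05, where 0.882% of all genes were called and 10.7% reached that p-value.

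The residual values of *Eno1b* stood in a different order from the control values. In control mice it was lower in Tregs than in Tconvs (584 ± 26.2 against 1080 ± 76.4, a ratio of 0.538), with a log2 fold change of -0.89 (SE 0.34, adjusted p = 0.0406, limma). The adjusted p-value passed its threshold and the fold change did not. This p-value rests on the spread of all 4 groups and was 0.00023 with the 4 control libraries alone, 0.081 with a pseudocount of 1, 0.15 without a minimum value, and between 0.11 and 0.19 when any 1 of the 4 control libraries was left out. In CD70Tg mice the values were 6.65-fold higher in Tregs than in Tconvs, but they rest on 5 to 9 reads per library, and the value of 3 reads alone is 31.3 in the CD70Tg Treg library with 84 and 16.3 in that with 49.

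The share of *Eno1b* in the sum of *Eno1* and *Eno1b* does not depend on the scaling of a library. It was 8.1% (95% Wilson interval 7.65 to 8.56%) and 7.85% (7.2 to 8.53%) in control Tconvs, and 7.22% (6.07 to 8.51%) and 7.75% (6.55 to 9.13%) in control Tregs. In CD70Tg Tregs it was 0.989% (0.499 to 1.93%) and 0.522% (0.274 to 0.987%), and in CD70Tg Tconvs 0.103% (0.042 to 0.23%) and 0.0353% (0.0172 to 0.0669%). Among control libraries both Treg shares lay below both Tconv shares, with a mean difference of -0.489 percentage points, while the Wilson intervals of all 4 libraries overlapped. With 2 against 2 libraries an exact permutation test cannot go below p = 0.333, so that this difference could not be judged by one. These intervals cover counting error only.

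The interval of the shallower CD70Tg Treg library lay above those of both CD70Tg Tconv libraries, and so did that of the other CD70Tg Treg library. Whether the few reads left in CD70Tg mice came from *Eno1b* or were reads of *Eno1* placed there was not tested.

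**Figure D2:**
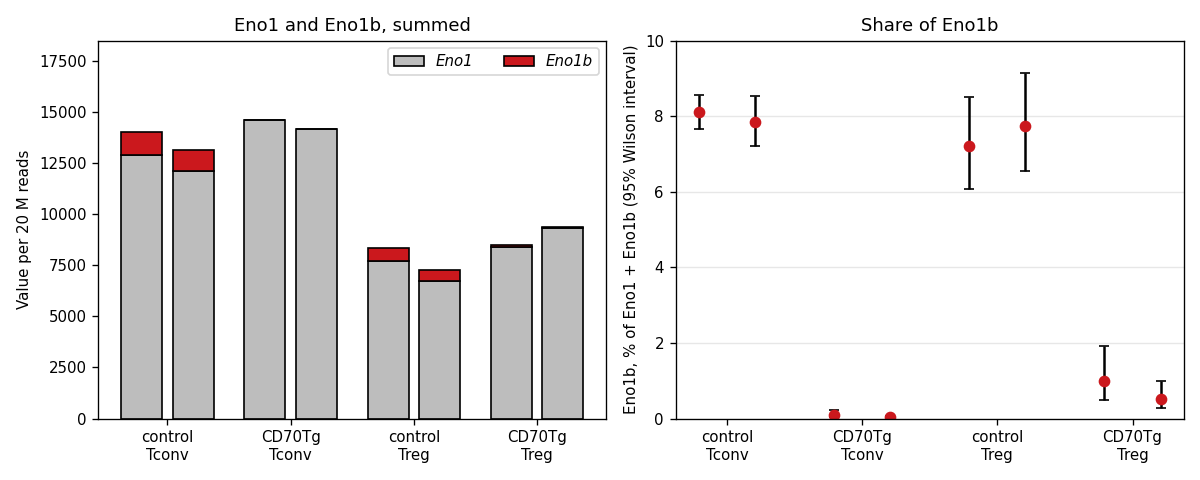
Left, values per 20 M reads of *Eno1* (grey) and *Eno1b* (red) stacked for each library. Right, *Eno1b* as a percentage of their sum, with 95% Wilson intervals for counting error. The share was 7.22 to 8.1% in the 4 control libraries and under 1% in the 4 CD70Tg libraries, whereas within each subset the stacked sums of CD70Tg libraries were not below those of controls.

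The sum of *Eno1* and *Eno1b* was not lower in CD70Tg mice. It was 14617 and 14158 in CD70Tg against 14047 and 13127 in control Tconvs, and 8495 and 9380 in CD70Tg against 8337 and 7291 in control Tregs. Within each subset both CD70Tg libraries lay above both controls. In Tconvs the mean of *Eno1* was higher by 1870 and that of *Eno1b* differed by -1070 (CD70Tg minus control), and in Tregs the differences were 1640 and -517. The summed values of all 4 enolase genes were 14500 ± 281 in CD70Tg and 13800 ± 650 in control Tconvs, and 9620 ± 581 in CD70Tg and 8510 ± 750 in control Tregs.

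Markers of other cell types differed between control and CD70Tg libraries in both directions. Of the pair of natural killer cell markers, *Klrb1c* was 403 and 423 in control and 75 and 68 in CD70Tg Tconvs, and 64 and 36 in control and 0 and 11 in CD70Tg Tregs. *Ncr1*, the more specific of the pair, was at 0 in all 4 control libraries. The summed macrophage markers (4 genes) were 1456 and 1458 in control and 887 to 1144 in CD70Tg Tconvs. *Adgre1* among them was not lower there, with 41 and 40 in control and 49 and 41 in CD70Tg Tconvs. In Tregs *Csf1r* and *Adgre1* were lower in CD70Tg mice and *Itgam* and *Lyz2* were higher, with sums of 2545 to 2547 in control and 2422 to 2687 in CD70Tg mice. *Cd8a* was 17 and 28 in control and 508 and 608 in CD70Tg Tconvs, and 25 and 71 in control and 262 and 223 in CD70Tg Tregs. Of the dendritic cell markers, *Itgax* and *Zbtb46* were higher in CD70Tg Tconvs and *Flt3* was not, and the 3 genes summed to 53 to 79 in control and 128 to 281 in CD70Tg Tconvs, and to 84 to 138 and 315 to 317 in Tregs, where *Itgax* and *Flt3* overlapped between the groups. The B cell markers (3 genes) summed to 65 to 79 in control and 26 to 29 in CD70Tg Tconvs, and to 79 to 107 and 164 to 169 in Tregs, where *Ms4a1* overlapped between the groups. The part of such cells in the values of *Eno1b* was not tested.

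The 5 other copies of *Eno1* that could be read carried few reads. Besides *Eno1b*, 10 annotated genes matched the *Eno1* transcript (at least 80% identity over at least 200 bases), all processed pseudogenes, of which 5 were read from the table. The closest was *Gm4735* on chromosome 2, which differed from the coding sequence of *Eno1* at 5 of 1302 bases. At all 5 it carries the base of *Eno1b*, so that it differs from *Eno1b* at only 3 of the 8 sites shown above. *Gm4735* had values of 17 and 9 in control and 6 and 9 in CD70Tg Tconvs, and 10 and 18 in control and 74 and 60 in CD70Tg Tregs. Only in CD70Tg Tregs were its values above those of the controls, from 7 and 11 reads against 2 and 4, and they were then of the size of the *Eno1b* values in the same libraries. *Gm5855* (96.3% identity) ranged from 0 to 18, *Gm16103* and *Gm33707* from 0 to 9, and *Gm14984* was at 0 in all 8 libraries. Another 3 copies have clone-derived names and were left out, and 2, one of which is a further copy on chromosome 18, have no row.

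None of the tested genes around *Eno1b* had a log2 fold change near its own. Within 5 Mb of it on chromosome 18 lie 83 genes with a row, clone-derived names left out, of which 15 could be tested. Of these, 0 were called in either subset in limma, with log2 fold changes of -0.42 to 0.17 in Tregs (median -0.17, against -0.05 for all tested genes) and of -0.36 to 0.50 in Tconvs (median 0.00, against 0.01). Only 1.08% and 0.577% of all tested genes were called lower, so that a count of 0 of 15 says little by itself. Limma-voom also called 0 in both, and at an unadjusted p-value under 0.05 in limma there were 1 in Tregs and 2 in Tconvs, against 21.6% and 19.1% of all tested genes. The adjusted p-value was under 0.05 for 1 gene in Tregs and 0 in Tconvs, against 7.4% and 8.8% of all tested genes. That gene, named after its values were seen, was *Tnfaip8*, 1930 kb from *Eno1b*, whose log2 fold change was -0.42 (adjusted p = 0.0433 in limma). Of the 3 nearest of the 83 genes on either side of *Eno1b*, *Commd10*, at 811 kb, was the nearest that could be tested. It had values of 587 and 480 in control and 456 and 532 in CD70Tg Tconvs, and of 403 and 408 in control and 366 and 343 in CD70Tg Tregs, with log2 fold changes of -0.11 and -0.19. The groups overlapped in Tconvs and not in Tregs, and neither difference passed the test (adjusted p = 0.841 and 0.604, limma). The other 5 carried few reads or none. *Sema6a*, which encodes a semaphorin and lies 676 kb before *Eno1b*, ranged from 0 to 27, and *Gm25036*, *Gm5839*, *1700044K03Rik* and *Gm25440* were at 0 in all 8 libraries. A difference between the mouse lines in the DNA at *Eno1b* itself, which the crosses could have brought in, cannot be told apart from the transgene in this design.

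**Figure D3:**
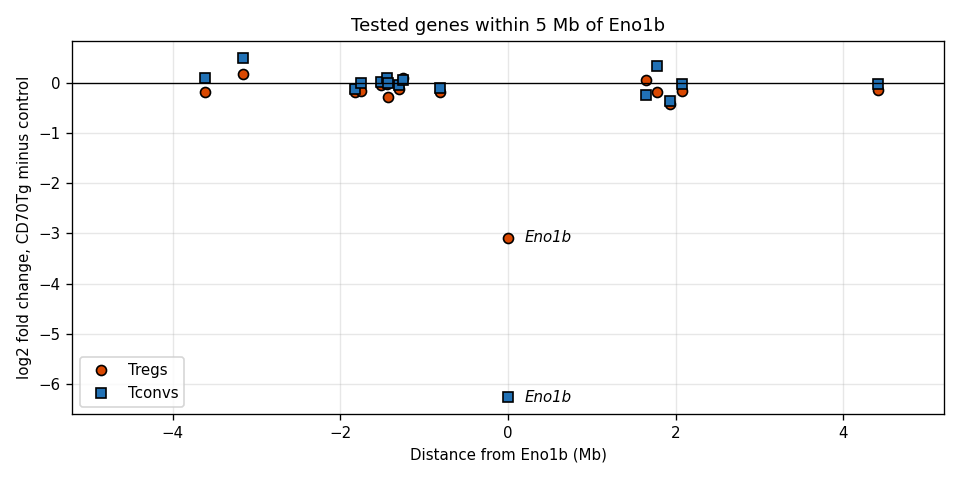
log2 fold change (CD70Tg minus control) of the 15 tested genes within 5 Mb of *Eno1b* and of *Eno1b* itself, against distance in Mb, with circles for Tregs and squares for Tconvs. The neighbours lay between -0.42 and 0.50, and *Eno1b* at -3.08 and -6.27.

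*Eno3*, the muscle-type enolase, was higher in Tregs. It had values of 191 and 193 in control Tconvs, 104 and 163 in CD70Tg Tconvs, 665 and 565 in control Tregs, and 565 and 490 in CD70Tg Tregs. All Treg libraries lay above all Tconv libraries. In control mice the ratio of Tregs to Tconvs was 3.2 (615 ± 70.7 against 192 ± 1.41), with a log2 fold change of 1.65 (SE 0.23, adjusted p = 3.23e-05, limma), and in CD70Tg mice the ratio was 3.95. The summed values of the muscle markers *Ckm*, *Acta1* and *Myh4* were 17 to 67 in all libraries. *Myh4*, which encodes a fast myosin heavy chain, was at 0 in all 4 Treg libraries and at 0 to 4 in Tconvs. The part of muscle cells in the values of *Eno3* was not tested.

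The values of *Eno3* were lower in CD70Tg than in control Tconvs without overlap, but the difference did not pass the test (log2 fold change -0.54, 95% interval -1.04 to -0.05, adjusted p = 0.206, limma). It was -0.23 without the CD70Tg Tconv library with 104 and -0.85 without that with 163 (limma, adjusted p = 0.65 and 0.059). In Tregs the groups touched at 565, and the log2 fold change was -0.22 (95% interval -0.72 to 0.28, adjusted p = 0.649, limma). On leaving out 1 Treg library it ranged from -0.33 to -0.10. The difference between the responses was 0.32 (95% interval -0.38 to 1.03, adjusted p = 0.8, limma). It was 0.01 without the CD70Tg Tconv library with 104 and 0.64 without that with 163.

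*Eno2*, the neuronal enolase, was rare in Tconvs and more abundant in Tregs. It had values of 8 and 7 in control Tconvs, 12 and 14 in CD70Tg Tconvs, 34 and 119 in control Tregs, and 147 and 158 in CD70Tg Tregs. These rest on 3 to 23 reads in Tconvs and 7 to 29 reads in Tregs. All Treg libraries lay above all Tconv libraries, and the control Treg libraries lay far apart. In control mice the mean was 76.5 ± 60.1 in Tregs against 7.5 ± 0.707 in Tconvs, with a log2 fold change of 2.48 (SE 0.51, adjusted p = 0.000868, limma). It was 3.31 without the control Treg library with 34 and 1.64 without that with 119, and called in both cases. The neuronal markers *Snap25*, *Syt1* and *Rbfox3* summed to 0 to 7 in all libraries, with *Syt1* at 0 in all 8. The part of neuronal cells in the values of *Eno2* was not tested.

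The higher values of *Eno2* in CD70Tg Tregs did not pass the test (log2 fold change 1.18, 95% interval 0.11 to 2.25, adjusted p = 0.184, limma). This result turned on the control libraries. Without the control Treg library with 119 it was 2.01 on the log2 scale (limma, adjusted p = 0.044), and without that with 34 it was 0.34 (limma, adjusted p = 0.84). In Tconvs the log2 fold change was 0.53 (95% interval -0.55 to 1.60, adjusted p = 0.67, limma), and the responses differed by 0.65 (95% interval -0.86 to 2.17, adjusted p = 0.819, limma). Globin transcripts, markers of erythroid cells, were higher, like *Eno2*, in CD70Tg than in control Tregs. Both *Hba-a1* and *Hbb-bs* were higher in both CD70Tg Treg libraries than in both controls, and they summed to 394 in the control library with 34, 1047 in that with 119, 2529 in the CD70Tg library with 147 and 1578 in that with 158. The control libraries stood in the same order as for *Eno2* and the CD70Tg libraries in the reverse order, where *Eno2* rests on 14 and 29 reads. In Tconvs, where *Eno2* was 7 to 14, the globin transcripts summed to 570 to 1027. The summed markers of dendritic cells and of B cells, given above, and of CD8 T cells (317 to 417 and 631 to 660, *Cd8a* and *Cd8b1*) were also higher in CD70Tg Tregs. The part of these cells and of erythroid cells in the values of *Eno2* was not tested. *Eno2* lies 463 kb from *Cd27* on chromosome 6, the locus altered on 1 allele in all 4 groups.

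Between the control subsets, 2 of the 4 members (*Eno2* and *Eno3*) were called higher in Tregs, where 14.7% of all tested genes were, and 0 of 4 were called lower, where 4.43% of all tested genes were (19.2% in either direction). At an unadjusted p-value under 0.05 in limma all 4 differed, as did 52.9% of all tested genes. Limma-voom on the numbers of reads made the same calls. *Eno2* reached the minimum value of 60 in Treg libraries only, so that it was tested through the subset in which it was high, and its call adds nothing to the count of the members.

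Set per kb of annotated exon, with the exons of all transcripts of a gene merged, *Eno1* led in all libraries with 1250 to 2710 per kb. These lengths were 5379 bases for *Eno1*, 4705 for *Eno2*, 1877 for *Eno1b* and 1739 for *Eno3*. The main transcripts have 2027, 2795, 1791 and 1564 bases. Values per kb of *Eno1* and *Eno2* are thus low beside those of *Eno1b* and *Eno3*, and distances between genes depend on the length used. In control Tconvs *Eno1b* came next with 606 and 549 per kb, before *Eno3* with 110 and 111 and *Eno2* with 1.7 and 1.49. In CD70Tg Tconvs *Eno3* came next with 59.8 and 93.7 per kb, and *Eno1b* (7.99 and 2.66) and *Eno2* (2.55 and 2.98) overlapped at the lower end. In control Tregs *Eno3* (382 and 325 per kb) and *Eno1b* (321 and 301) came next, with *Eno3* above *Eno1b* in both libraries and *Eno2* at 7.23 and 25.3. In CD70Tg Tregs *Eno3* (325 and 282 per kb) stood above *Eno1b* (44.8 and 26.1) and *Eno2* (31.2 and 33.6), which overlapped. That overlap depends on the length used, and it rests on 8 and 9 reads of *Eno1b* and 14 and 29 of *Eno2*. *Eno4*, a further gene of the family with a role in sperm, had values of 0 to 5 in all libraries.

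The other enzymes of glycolysis did not show a loss like that of *Eno1b*. A list of 35 glycolysis genes outside the family, chosen with earlier results of these data known, held 28 tested genes. Between CD70Tg and control mice, 0 of the 28 were called in Tregs and 0 in Tconvs in limma, with medians of 0.04 and 0.05 on the log2 scale (all tested genes -0.05 and 0.01). The shares called among all tested genes were 3.60% and 4.65%. At an unadjusted p-value under 0.05 there were 8 and 10 of the 28, against 21.6% and 19.1% of all tested genes, and limma-voom called 0 and 3. By the adjusted p-value of limma alone, 1 was higher and 2 were lower in Tregs, where 7.4% of all tested genes passed in either direction. *Aldoa*, the main aldolase, had a log2 fold change of 0.47 (adjusted p = 0.0249), *Adpgk*, a glucokinase that uses ADP, of -0.55 (0.0318) and *Myc*, a transcription factor of growth genes, of -0.45 (0.0248). In Tconvs 2 were higher and 1 was lower, where 8.8% of all tested genes passed in either direction. *Slc2a3*, the glucose transporter GLUT3, was at 0.73 (adjusted p = 0.0025, limma), *Hif1a* at 0.63 (0.0205) and *Myc* at -0.51 (0.00842). All of these stayed under the threshold on the fold change. The names of *Aldoa*, *Adpgk* and *Myc* were added after their values were seen. For the difference between the responses limma called 0 of the 28, with 2 at an unadjusted p-value under 0.05, and limma-voom called 0. Of all tested genes limma called 0.882%, and 10.7% reached that p-value.

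The steps next to enolase moved little. *Pgam1*, the mutase that makes its substrate, had log2 fold changes of 0.03 in Tregs and 0.10 in Tconvs, and *Pkm*, the pyruvate kinase that uses its product, of 0.27 and -0.02. None of these passed the test (adjusted p = 0.957, 0.873, 0.208 and 0.955, limma). *Gapdh* and *Ldha*, the glyceraldehyde phosphate and lactate dehydrogenases, also did not pass, with 0.34 and 0.07 in Tregs and 0.20 and -0.15 in Tconvs. *Pgam2* and *Pklr*, the muscle-type mutase and the liver-type kinase, had values of 22 to 63 and of 2 to 32 and were not tested.

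Between control Tregs and Tconvs, 7 of the 28 genes were called higher in Tregs and 0 lower, and by the adjusted p-value of limma alone 9 were higher and 4 lower. Of all tested genes, 14.7% were called higher and 4.43% lower, and 45.8% passed by the adjusted p-value alone. The median of the 28 was -0.03 (all tested genes 0.07). At an unadjusted p-value under 0.05 in limma 15 differed (52.9% of all tested genes), and limma-voom called 7 higher and 0 lower. Higher in Tregs were *Slc2a3* (log2 fold change 1.74), *Slc16a3*, an exporter of lactate (2.35), the hexokinases *Hk2* (2.23) and *Hk3* (1.65), *Pfkfb1* (1.75), the brain-type aldolase *Aldoc* (1.52) and *Hif1a*, a transcription factor of glycolytic genes (1.47). *Hk3* and *Pfkfb1* reached the minimum value of 60 in Treg libraries only and *Hk2* in 1 Tconv library besides, so that these 3 were tested through the subset in which they were high, and 4 of the 7 calls do not depend on this. The aldolases went in opposite directions. *Aldoa* had values of 11793 and 10969 in control Tconvs and 6556 and 5460 in control Tregs (log2 fold change -0.93, adjusted p = 1.28e-05, limma), while *Aldoc* had 104 and 82 in control Tconvs and 301 and 250 in control Tregs. *Ldha* was also lower in Tregs (-0.55, adjusted p = 0.00118, limma), under the threshold on the fold change, and *Gapdh*, *Pgam1* and *Pkm* did not pass the test (-0.07, -0.30 and -0.23).

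**Figure D4:**
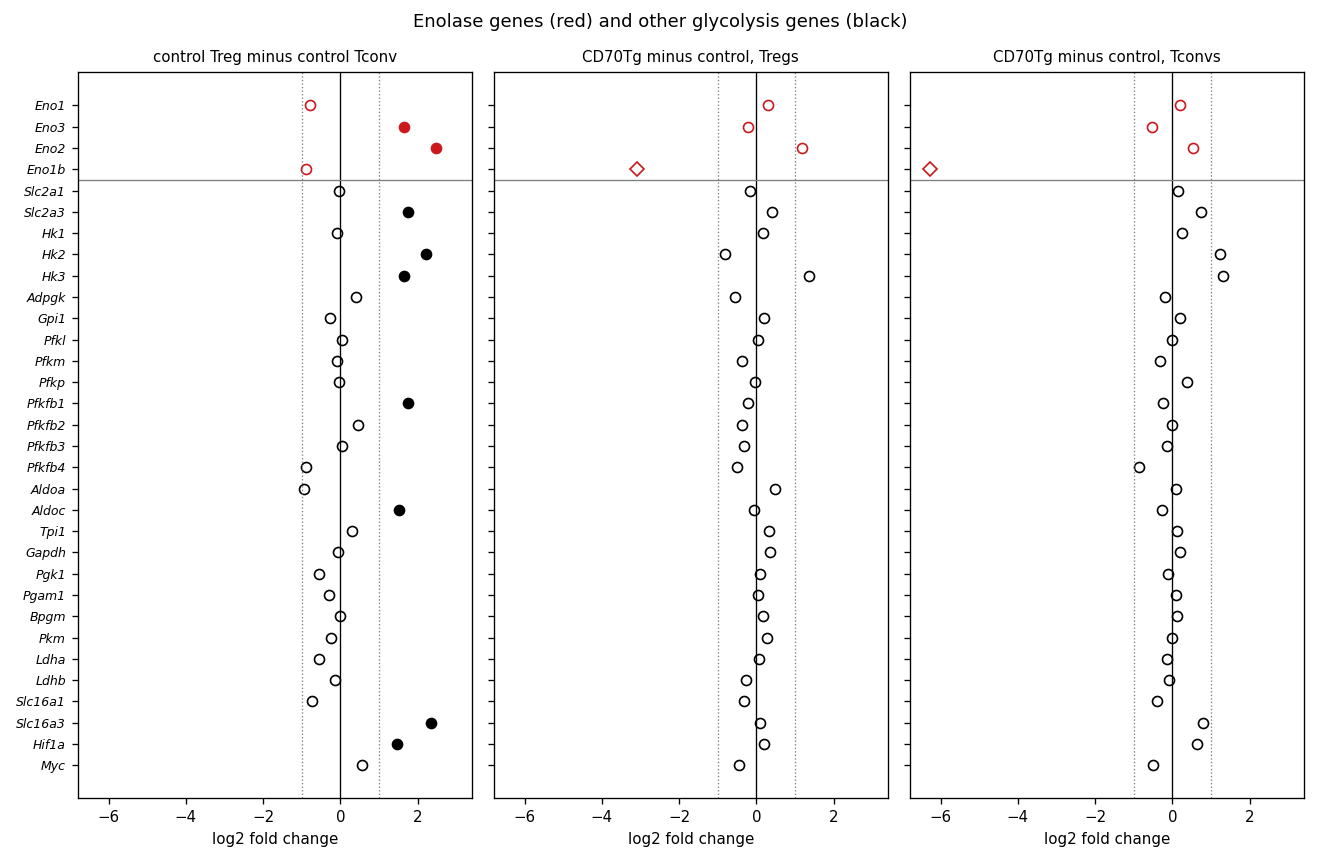
log2 fold change of the enolase genes (red) and of 28 tested glycolysis genes (black) between control subsets and between CD70Tg and control mice in each subset. Filled symbols mark genes past both thresholds, the dotted lines being that on the fold change, and open diamonds mark *Eno1b* where it was not tested. Filled symbols are seen only between the control subsets, at *Eno3*, *Eno2* and 7 other genes.

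Among all tested genes, those whose values over the 8 libraries were most like *Eno1b* were *Stambpl1*, a deubiquitinase (Pearson r = 0.981), *Tet1*, a methylcytosine dioxygenase (0.978), *Sqor* (0.97), *Fam212b* (0.965) and *Slc39a10*, a zinc transporter (0.961). They share the libraries, their depth and the split between control and CD70Tg mice. None was lost as *Eno1b* was. *Tet1* had values of 356 and 440 in control and 188 and 147 in CD70Tg Tconvs, and 384 and 368 in control and 230 and 196 in CD70Tg Tregs. The log2 fold changes of these 5 genes were -0.81 to -0.25 in Tregs and -1.23 to -0.37 in Tconvs. Most like *Eno1* were *Apol7e* (r = 0.989), *Sod1* (0.985), *Ggt1* (0.982), *Psmb4* (0.982) and *Degs1* (0.982). Being lower in Tregs than in Tconvs, as *Eno1* was, follows from how they were found. Over the same 8 libraries the correlation with *Eno1* was -0.40 for *Eno1b*, -0.79 for *Eno2* and -0.95 for *Eno3*. The last 2 values include the split between the subsets, with *Eno1* higher in Tconvs and *Eno2* and *Eno3* higher in Tregs. Within each subset both *Eno1* and *Eno2* were higher in CD70Tg than in control libraries.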

How the data were processed

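RNA of sorted Tregs and Tconvs was sequenced from paired ends in 8 libraries. The authors trimmed reads with Trimmomatic (0.36), mapped them to mm10 with STAR (2.5.3, default settings), counted them per gene with HTSeq (0.9.1) and deposited a score per gene, the count scaled to 20 M reads and rounded up. The settings of HTSeq for strand and for reads with several positions are not given in the sources used here. The deposited table holds no raw counts, so that limma replaced the count model of the study. Reads were recovered from the step of the low values, which is less certain in the deepest libraries of control and CD70Tg Tconvs (19.56 M and 33.39 M).

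Of 52636 rows, 4131 with clone-derived names, whose values mostly did not follow the step of their library where it was wide enough to tell (0.0 to 53.5% did in the 6 such libraries), were left out, and of 97 names on more than one row the row with the largest total kept the name. Identifiers were found in GENCODE M21 for 99.7% of rows. The 12816 genes that reached 60 in 2 or more libraries were fitted in limma 3.58.1 (R 4.3.3) on log2(value + 5), in 1 model with 4 group means and a trend in the prior variance. Benjamini-Hochberg adjusted p-values are over these genes within a contrast. The procedure was tested on simulated data. Copies of *Eno1* were found with blastn 2.17.0.

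The members, the lists (glycolysis genes, markers of other cell types) and the tests were chosen with earlier results of these data known. Of the markers of erythroid cells, 1 is not reported here. Genes named were the members, the glycolysis genes next to enolase or called, the copies of *Eno1*, the 3 nearest genes on either side of *Eno1b*, and the 5 genes most correlated with *Eno1b* and with *Eno1*. Alternatives were pseudocounts of 1 and 20, a minimum on the mean (60) or none, scaling by median-of-ratios factors, fitting only the 4 libraries of a contrast, limma-voom on reads, and leaving out each library.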

Additional observations from a re-analysis of the deposited data

How the results depend on the processing

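No paired analysis was possible because the columns of the table carry no replicate numbers within a group. Each test of the members kept its direction and its side of the joint threshold on adjusted p-value and fold change under all alternatives except as follows. *Eno1b* between the control subsets, never past the fold change, also lost its adjusted p-value under 0.05 with a pseudocount of 1, with no minimum value and without any 1 control library. Leaving out 1 library at a time, *Eno2* in Tregs ranged from 0.34 to 2.01 (CD70Tg minus control, log2) and passed only without control Treg library 2. The difference between the responses of Tregs and Tconvs ranged from -0.18 to 1.49 for *Eno2* and from -0.01 to 0.20 for *Eno1*, turning below 0 without control Treg library 1 for *Eno2* and without control Treg library 2 for *Eno1*. The adjusted p-value of *Eno1* in Tregs was 0.042 in limma with the 4 Treg libraries alone, at an unchanged log2 fold change of 0.30. The glycolysis list gained 1 gene called higher in CD70Tg Tregs with a pseudocount of 20 and 1 with the 4 libraries alone. In Tconvs it gained 1 called higher with the 4 libraries alone, 2 higher and 1 lower with limma-voom, and 0 to 2 higher on leaving out libraries, with 1 without control Tconv library 1 and 2 without CD70Tg Tconv library 1. On leaving out libraries, 0 to 1 were called lower in control Tregs than in control Tconvs (1 without control Treg library 1) and 0 to 1 for the difference between the responses (1 without CD70Tg Treg library 2). The 7 genes called higher in control Tregs became 6 with no minimum value, with a mean of at least 60, and without control Tconv library 2 or control Treg library 2. The causes were not tested. Median-of-ratios factors moved the median of all genes by -0.07 to 0.08. With 1.92 M reads in the shallowest Treg library, values near 31.3 rest on 3 reads there, which limits *Eno1b*, *Eno2* and the pseudogenes. A lone library left in a group was assumed to vary like the other groups.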
